A study of Caenorhabditis elegans with 2 samples.

Results

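The genes described here encode the cyclin-dependent kinases (CDKs) that act on RNA polymerase II and the cyclins that switch them on. They are 4 kinase genes (cdk-7, cdk-8, cdk-9 and cdk-12) and 5 cyclin genes (cyh-1, cic-1, cit-1.1, cit-1.2 and ccnk-1), 9 of the 19973 protein-coding genes annotated on the nuclear chromosomes of Caenorhabditis elegans. The list was chosen by gene function with the scores, ranks and positions of EFL-1 peaks at gene starts already known, so the values below are a description and none was tested. EFL-1 is the worm counterpart of the mammalian repressor E2Fs and a subunit of the DREAM complex. Its binding sites were mapped by chromatin immunoprecipitation and sequencing (ChIP-seq) with an antibody to EFL-1. The material was N2 hermaphrodites, the wild-type strain, taken whole as L1 larvae grown at 26 °C, in 2 biological replicates from separate biosamples, which form the only group. Whole larvae mix all cell types, so EFL-1 on DNA in more cells and more EFL-1 on DNA per cell cannot be told apart.

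A cyclin-dependent kinase is inactive until a cyclin binds it. Some members of the family drive the cell cycle, and others phosphorylate the repetitive tail of RNA polymerase II and act at successive steps of transcription. CDK7 with cyclin H belongs to the general factor TFIIH, which opens promoters, and also activates other CDKs. CDK8 with cyclin C belongs to the kinase module of Mediator, the bridge between enhancer-bound factors and the polymerase. CDK9 with cyclin T is P-TEFb, which releases the polymerase into elongation, and CDK12 with cyclin K acts on the elongating polymerase. The worm has a pair of cyclin T genes, cit-1.1 and cit-1.2.

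EFL-1 peaks lay at the starts of 7 of these 9 genes, and in every kinase and cyclin pair at least 1 gene had one. A gene was called where a summit of the set thresholded by the irreproducible discovery rate (IDR), 4835 peaks in all, lay no more than 500 bp ahead of its annotated start or 200 bp past it. Of all 19973 genes 15.2% were called by this rule. The genes not called were cyh-1 and cit-1.2. The order of the scores was cic-1, cdk-7, cdk-9, ccnk-1, cdk-12, cdk-8 and cit-1.1. All 7 summits lay upstream of the gene start and outside annotated genes.

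**Figure D1:**
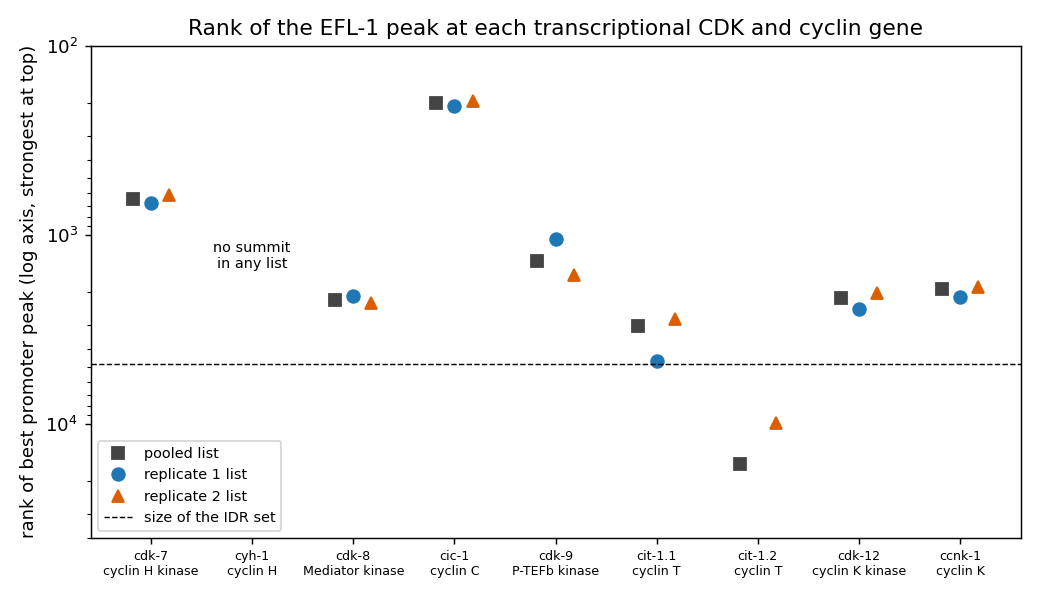
Rank of the highest-scoring peak in the promoter window of each gene in the pooled list (squares), the replicate 1 list (circles) and the replicate 2 list (triangles), on a log axis with the strongest peaks at the top; the dashed line marks the 4835 peaks of the IDR set. The gene cic-1 stands at ranks 196 to 208, cit-1.1 at 4666 in replicate 1, cit-1.2 below the line, and cyh-1 has no summit.

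The sequences under 4 of the peaks are shown because cic-1, the strongest, and ccnk-1 differ in the short words associated with E2F and DREAM that they hold, with cit-1.1 and cdk-12 between them. The sequence at Y49F6B.2 is shown because its peak is the nearest IDR peak upstream of cyh-1. Each is the stretch of 201 bases centred on the summit, read 5′ to 3′ on the strand of the named gene, from the RefSeq genome WBcel235, which is the build of the ce11 peak lists. Capitals mark CCCGC or CGCGC or GCCGC or GGCGC (the last bases of the E2F consensus) and TTTGAA or TTCGAA (the CHR element, known from cell cycle promoters), on either strand, and neighbouring words can run together. They come from chrIII:2401245-2401445 (cic-1, minus strand), chrIII:8009875-8010075 (cit-1.1, minus), chrIII:4332622-4332822 (cdk-12, plus), chrV:14612278-14612478 (ccnk-1, plus) and chrII:3502735-3502935 (Y49F6B.2, plus).
cic-1: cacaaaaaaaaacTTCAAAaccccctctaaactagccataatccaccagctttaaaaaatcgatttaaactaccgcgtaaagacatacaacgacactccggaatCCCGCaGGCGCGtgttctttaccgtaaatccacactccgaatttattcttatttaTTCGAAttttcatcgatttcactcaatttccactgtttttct
cit-1.1: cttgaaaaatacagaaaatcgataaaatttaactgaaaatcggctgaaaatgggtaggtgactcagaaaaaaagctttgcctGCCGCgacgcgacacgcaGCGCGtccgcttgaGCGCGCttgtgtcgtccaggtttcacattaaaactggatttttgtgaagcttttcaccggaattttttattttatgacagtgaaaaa
cdk-12: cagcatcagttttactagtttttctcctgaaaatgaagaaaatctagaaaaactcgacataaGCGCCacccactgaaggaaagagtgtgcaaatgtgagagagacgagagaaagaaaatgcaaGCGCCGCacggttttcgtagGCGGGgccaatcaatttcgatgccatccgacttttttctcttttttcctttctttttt
ccnk-1: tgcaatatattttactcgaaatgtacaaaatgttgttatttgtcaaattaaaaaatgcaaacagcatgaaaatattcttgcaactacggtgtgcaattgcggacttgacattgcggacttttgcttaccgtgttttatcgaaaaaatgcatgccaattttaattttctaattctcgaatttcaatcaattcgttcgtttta
Y49F6B.2: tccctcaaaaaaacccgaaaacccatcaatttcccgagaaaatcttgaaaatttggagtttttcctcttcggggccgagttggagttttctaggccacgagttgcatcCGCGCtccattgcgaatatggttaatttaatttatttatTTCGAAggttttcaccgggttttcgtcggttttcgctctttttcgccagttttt

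None of the 7 peaks held the full E2F consensus within 100 bp of its summit. The words searched on both strands were TTCCCGC or TTCGCGC or TTGCCGC or TTGGCGC. The count of 0 of 7 has an exact 95% interval reaching 41.0%. Of all 4835 IDR peaks 17.5% held 1 of these words, as did 6.89% of stretches of the same length centred 150 bp upstream of all gene starts. In the whole promoter window, cdk-7 had TTGCCGC with its first base 445 bp upstream of the start, 429 bp from the summit, and cit-1.1 had a word 64 bp inside the gene, 218 bp from the summit. The other 7 windows held none, and 19.5% of all promoter windows held at least 1.

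A CHR word, TTTGAA or TTCGAA on either strand, lay within 100 bp of the summit at cic-1, cdk-7 and cdk-9. These 3 of 7 peaks (42.9%) compare with 44.8% of all IDR peaks and 55.9% of the stretches upstream of all gene starts. At cic-1 the words began 87 bp before and 59 bp after the summit. The peaks of ccnk-1, cdk-8, cdk-12 and cit-1.1 held neither kind of word. At ccnk-1 the 201 bases were 30.8% G or C, below the lower quartile of 37.3% over all IDR peaks. The other 6 peaks ranged from 37.8% at cic-1 to 47.8% at cdk-7.

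The Mediator kinase pair held the strongest peak of the list and one of the weaker ones. The gene cic-1 (WBGene00000506, chrIII:2394325-2401221, minus strand), encoding cyclin C, had a peak at chrIII:2401119-2401585 with its summit 124 bp upstream of the start. The peak scored 846 in replicate 1 and 1645 in replicate 2, and 2483 in the list called on the pooled reads, where it ranked 200. It ranked 208 of 28817 peaks in replicate 1 and 196 of 30000 in replicate 2, so both replicates placed it near the top. Of the 3027 called genes, 229 had a higher-scoring peak. The next gene on the opposite strand, strm-1, starts 725 bp from this summit, outside its own window, so the peak was assigned to cic-1 alone.

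The gene cdk-8 (WBGene00000409, chrI:8702466-8705825, plus strand), encoding the kinase of the pair, had a narrower and lower peak at chrI:8702370-8702496. It scored 74.6 in replicate 1 and 129 in replicate 2, and 202 in the pooled list, at rank 2222. Its summit lay 14 bp upstream of the start. The same summit lay 479 bp upstream of tlf-1, the gene of a TBP-like factor read in the opposite direction. Both starts are 493 bp apart, and the summit sat at the cdk-8 end of that interval.

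The TFIIH pair had a peak at the kinase gene and none at the cyclin gene. The gene cdk-7 (WBGene00000408, chrI:2281503-2291205, minus strand) had the next strongest peak of the list, at chrI:2291070-2291398, with its summit 16 bp upstream of the start. It scored 305 in replicate 1 and 601 in replicate 2, and 898 in the pooled list, at rank 642. Both replicates ranked it alike, at 674 and 618. A separate IDR peak with a score of 252.0 had its summit at -1792 bp from the start, in the promoter window of Y39G10AR.11.

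The gene cyh-1 (WBGene00021714, chrII:3505017-3510597, plus strand), encoding cyclin H, had no summit in its promoter window in any of the lists, relaxed ones included. It starts 106 bp after the end of Y49F6B.2 on the same strand, a spacing found in operons, where one promoter serves several genes. That upstream gene had an IDR peak at chrII:3502695-3502974, 133 bp upstream of its start and 2182 bp upstream of that of cyh-1. The peak scored 230 in replicate 1 and 308 in replicate 2, and 531.6 in the pooled list, at rank 1029. It also lay in the window of the collagen gene col-71 on the opposite strand. Whether cyh-1 is transcribed from this site cannot be read from peak lists. Genes starting within 500 bp behind a gene of the same orientation made up 18.1% of all protein-coding genes, and cyh-1 was the only 1 of the 9 among them.

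**Figure D2:**
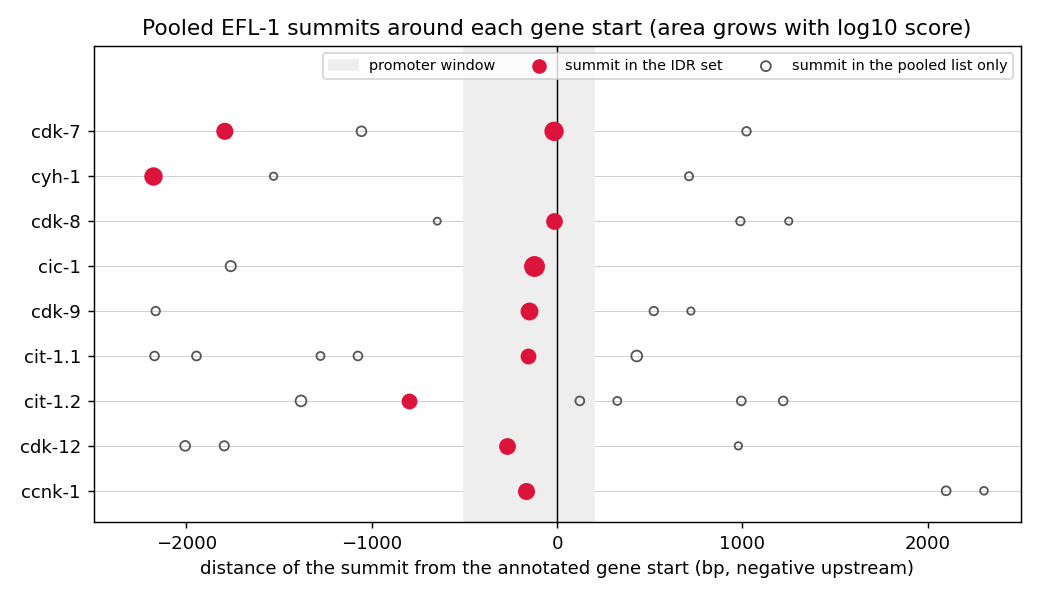
Summits of the pooled list around each gene start, as distance in bp with upstream to the left; filled circles are summits in the IDR set, open circles are in the relaxed list only, circle area grows with log10 score, and the shaded band is the promoter window. Called genes have 1 filled circle in the band each, between 270 and 14 bp upstream; that at cyh-1 lies 2182 bp upstream and that at cit-1.2 797 bp upstream, outside the band.

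In the P-TEFb group the kinase gene had the higher score and only 1 of the cyclin T genes was called. The gene cdk-9 (WBGene00000410, chrI:11323527-11333154, plus strand) had a peak at chrI:11323243-11323485, with its summit 150 bp upstream of the start. It scored 183 in replicate 1 and 203 in replicate 2, and 382 in the pooled list, at rank 1376. The replicates ranked it at 1050 and 1626. The peak lay between cdk-9 and the divergent hexokinase gene hxk-2, 267 bp upstream of the hxk-2 start, in an interval of 417 bp between both starts.

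The cyclin T genes cit-1.1 (WBGene00000507, chrIII:8005933-8009821, minus strand) and cit-1.2 (WBGene00000508, chrIII:8010772-8013769, plus strand) stand head to head with their starts 951 bp apart. The single IDR peak between them, at chrIII:8009891-8010019, had its summit 154 bp upstream of cit-1.1 and 797 bp upstream of cit-1.2. It scored 23.8 in replicate 1 and 98.3 in replicate 2, and 127.6 in the pooled list, at rank 3048. Replicate 1 ranked it 4666 with a −log10 q (q being the p-value adjusted for the many sites tested) of 3.02, below the ceiling of 3.93 that the other 6 called genes reached in that list. Replicate 2 ranked it 2772, with a −log10 q at that list's ceiling of 4.08.

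For cit-1.2, replicate 1 had no summit in the promoter window. Replicate 2 had one with a score of 15.1, and the pooled list had one with a score of 15.7 and a −log10 q of 0.27, 123 bp inside the gene in an intron. The lowest score in the IDR set was 59.6. Among the 9 genes, the called one nearest to it was cit-1.1 at 127.6. The highest pooled score in the window of one not called was 15.7 at cit-1.2. In the pooled list neither lay close to the threshold, but replicate 1 ranked cit-1.1 at 4666, near the 4835 peaks of the set. With a window reaching 1000 bp upstream and 500 bp downstream, cit-1.2 was called through the peak of cit-1.1. The coding sequences of both genes were 53.9% identical over 1370 aligned bases. Every stretch of 36 bases in the promoter windows of all 9 genes occurred once in the genome, so a read of that length from them has 1 exact place.

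The CDK-12 and cyclin K genes had peaks of similar height. The gene cdk-12 (WBGene00007135, chrIII:4332992-4341984, plus strand) had its peak at chrIII:4332645-4332813, with the summit 270 bp upstream of the start, the farthest of the 7. It scored 59.2 in replicate 1 and 150 in replicate 2, and 209.8 in the pooled list, at rank 2143. A summit in an intron, 2859 bp inside the gene, scored 57.4 at rank 4948 of the pooled list, just under the IDR set. The other 8 genes also had no IDR summit in the gene body beyond the promoter window.

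The gene ccnk-1 (WBGene00009650, chrV:14612548-14613706, plus strand), encoding cyclin K, had a peak at chrV:14612277-14612469 with its summit 170 bp upstream. It scored 73.1 in replicate 1 and 166 in replicate 2, and 243.6 in the pooled list, at rank 1937. The divergent gene R11H6.5 starts 326 bp away and shares the peak, 156 bp upstream of its own start. Since R11H6.5 is the closer of both, ccnk-1 was not called when each peak went only to the nearest start. The scores of ccnk-1, cdk-12 and cdk-8 were not in a stable order: cdk-8 was the highest of these 3 in replicate 1 and the lowest in replicate 2. The order of cic-1, cdk-7 and cdk-9 above them and cit-1.1 below them was alike in both replicates.

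Both replicate lists had a summit within 100 bp of the pooled one at all 7 called genes, and at 4718 of all 4835 IDR peaks. The IDR set is selected for agreement between the replicates, so this match was nearly fixed in advance. To set the replicates on 1 scale, scores were ranked within the 4718 IDR peaks matched in both replicate lists within 100 bp. The rank differed by 12 at cic-1, 56 at cdk-7, 187 at cdk-8, 237 at ccnk-1, 405 at cdk-12, 576 at cdk-9 and 1417 at cit-1.1. The median difference over all matched peaks was 255.0. The difference at cit-1.1 was as large as or larger than that of 97.8% of all matched peaks, with the lower place in replicate 1. At cdk-9 the lower place was in replicate 2. In replicate 1 the peaks of cdk-8, cdk-12, cit-1.1 and ccnk-1 were each 344 bp wide, which is also the median width of that list. The summits of both replicates lay between 1 bp (cic-1) and 17 bp (cit-1.1) apart at the 7 genes, against a median of 12 bp over all matched peaks.

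The relaxed lists hold background as well as peaks. Replicate 1 had a summit in the window of 7 of the 9 genes, against 32.1% of all genes. Replicate 2 had one at 8 of 9, against 33.3%, and the pooled list at 8 of 9, against 32.7%. In both lists with 8 of the genes, the added one was cit-1.2.

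**Figure D3:**
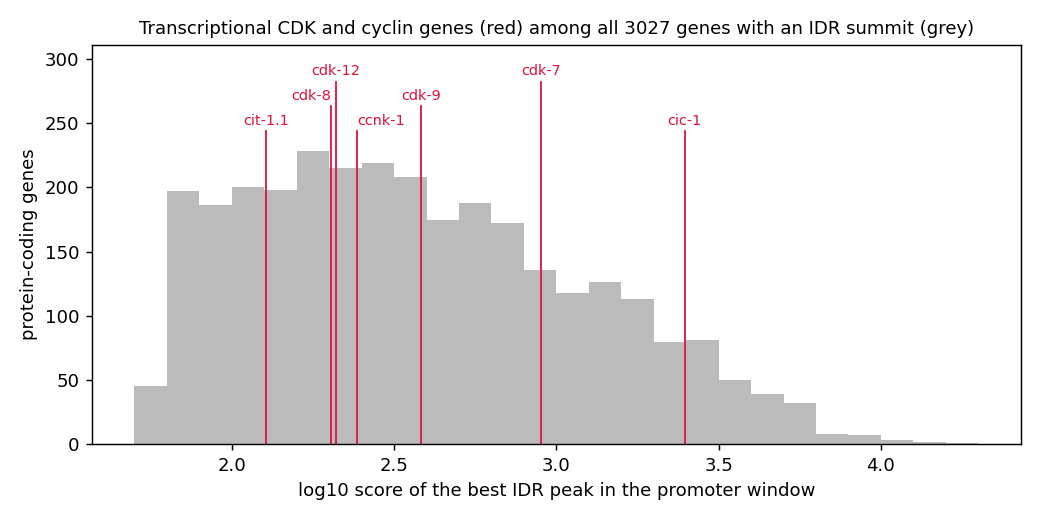
Number of protein-coding genes by the log10 score of their best IDR peak in the promoter window (grey, 3027 genes), with the 7 called transcriptional CDK and cyclin genes marked by red lines. The marks run from 127.6 at cit-1.1 to 2483 at cic-1 on the linear scale, and 4 of them, cit-1.1, cdk-8, cdk-12 and ccnk-1, lie to the left of the median of all called genes, 325.3.

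Scores of the 7 genes were spread over the range of all called genes without reaching either end. The median score of the 7 was 243.6, against 325.3 over all 3027 called genes. The share of called genes with a lower score was 92.4% for cic-1, 75.9% for cdk-7, 54.6% for cdk-9, 41.2% for ccnk-1, 37.0% for cdk-12, 35.3% for cdk-8 and 21.1% for cit-1.1. The median summit lay 150 bp upstream of the start in the list, at an offset of -150.0 bp, and at -170.0 bp over all called genes. A divergent gene shared the peak at 3 of the 7 (42.9%), against 41.8% of all called genes. All 7 summits were upstream of the start, as were 93.7% over all called genes.

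Genes that work with these kinases were called at 14 of 29, against 15.2% of all genes. Of RNA polymerase II and elongation factor genes, 6 of 11 were called. The highest scores were 5520 at pafo-1, encoding a subunit of the PAF1 elongation complex, 3009 at emb-5, the SPT6 homologue, and 1742 at cdc-73, a further PAF1 complex gene. The peak of pafo-1 ranked 31 and had its summit at -77 bp. The polymerase subunit genes ama-1 and rpb-2 were not called, with pooled scores of 19.9 and 11.3.

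All 3 genes of CDK11 and cyclin L, a kinase and cyclin linked to splicing, were called, against 15.2% of all genes. The score was 355.9 at cyl-1, 201.0 at cdk-11.2 and 127.5 at cdk-11.1. The score of cyl-1 was nearest to that of cdk-9, that of cdk-11.2 to cdk-8, and that of cdk-11.1 to cit-1.1. The peak of cyl-1 also lay in the window of C52E4.7, and that of cdk-11.1 in the window of moa-2. Of genes for phosphatases and readers of the polymerase tail, 3 of 5 were called, against the same 15.2%. Their scores were 946.9 at the prolyl isomerase gene pinn-1, 393.8 at cids-2 and 207.0 at cids-1. The phosphatase genes fcp-1, with a pooled score of 10.6, and ssup-72, with no pooled summit, were not called.

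The other genes of the complexes that CDK-7 and CDK-8 belong to are few, and their counts are read against the 15.2% of all genes called. Of 8 TFIIH genes besides cdk-7 and cyh-1, 2 were called (25%): xpb-1, encoding a helicase subunit, at 225.7 and gtf-2H3 at 75.5. The helicase gene xpd-1 and gtf-2H1 had no pooled summit. Neither of the 2 remaining Mediator kinase module genes was called, dpy-22 (MED12) with no pooled summit and let-19 (MED13) with a pooled score of 14.5. The difference between complexes was not tested. Of the 15 partner genes not called, 7 start close behind another gene on the same strand, as do 3 of the 14 called ones, pafo-1 among them. The first gene of the run had an IDR summit for some of these 7, xpd-1, rpb-2 and fcp-1 included, and for none of the 3 called ones. Judged by the start of the first gene of a run, 15 partner genes were called instead of 14.

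**Figure D4:**
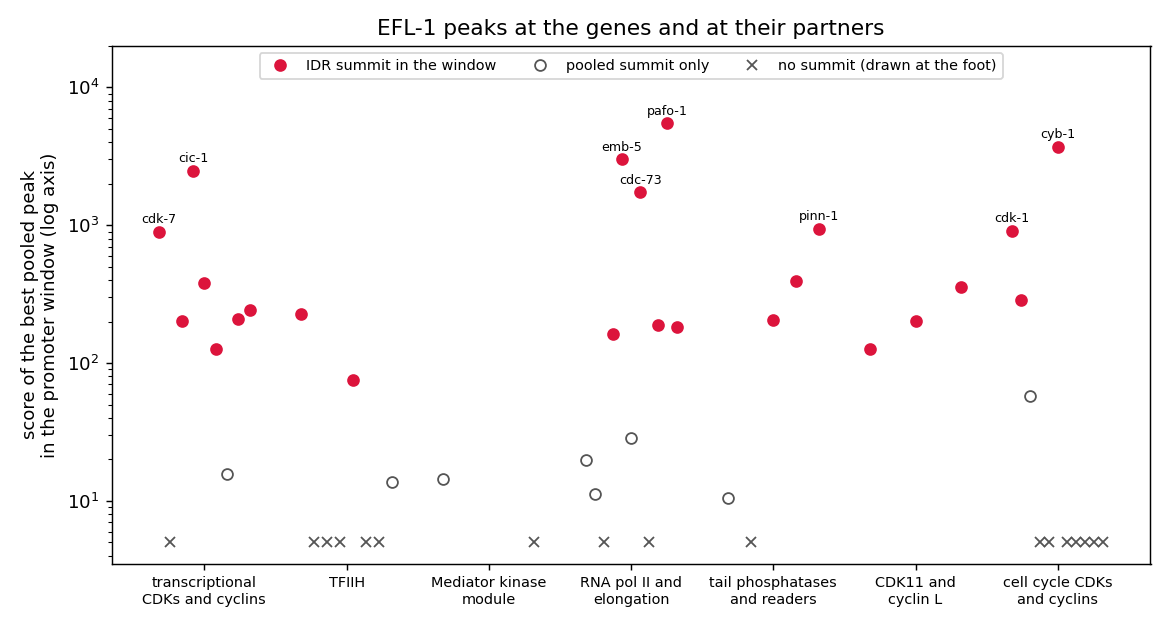
Score of the best pooled peak in the promoter window (log axis) of each transcriptional CDK and cyclin gene, each partner gene by group, and each cell cycle CDK and cyclin gene; filled circles have an IDR summit, open circles a pooled summit only, and crosses at the foot have none. The filled circles number 7 of 9, 14 of 29 over the partner groups and 3 of 11 for the cell cycle genes.

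The genes for transcription were called at 7 of 9, and cell cycle kinase and cyclin genes at 3 of 11 (27.3%), against 15.2% of all genes. The difference between these lists was not tested. The called cell cycle genes were cyb-1, a cyclin B gene, with a score of 3726, cdk-1 with 912.1 and cdk-2 with 288.8. The summit at cyb-1 lay at -493 bp, near the edge of the window, in a peak shared with orc-5, and the summit at cdk-2 lay at -468 bp. The peak of cdk-1, at -102 bp, was shared with iff-1. All 7 summits at the genes for transcription lay within 270 bp of the start, as did that at cdk-1. Those at cyb-1 and cdk-2 lay farther away, and the median over all called genes was at -170.0 bp. A window of 300 bp upstream to 100 bp downstream would leave out the summits at cyb-1 and cdk-2. Over all genes that window called 2333, next to 3027 with the main window. Most called genes therefore also had a summit this near the start, so nearness is not particular to the genes for transcription. Of the 8 cell cycle genes not called, 7 had no pooled summit in their windows, and cdk-4 had one at 57.5, just under the lowest score of the IDR set.

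The genes most like each called gene were found by the smallest distance between log10 scores over the 2 replicates, among 2979 or 2980 called genes outside the list that do not share its peak and have a summit in both replicates. These were brc-1 for cic-1, epc-1 for cdk-7, nmt-1 for cdk-9, tag-30 for ccnk-1, npp-25 for cdk-12, sut-2 for cdk-8 and F25B4.7 for cit-1.1. The peak of brc-1 scored 848 in replicate 1 and 1650 in replicate 2, next to 846 and 1645 at cic-1. The likeness rests on 2 scores per gene and says nothing beyond that.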

How the data were processed

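Per the labels, both replicates were ChIP-seq libraries with fragments of 150 to 350 bp. Per the deposited file descriptions, relaxed lists of peaks and background were derived from the alignments of each replicate and of both together (the pooled list), and the IDR set came from these 3. It was identical to the 4835 highest-scoring pooled peaks. Which aligner and peak caller were run is not given in the sources used here. A score deposited by the authors stands beside every peak, of unknown scale, and scores were therefore compared within a list only. Every peak also has a deposited −log10 q, read from the peak format. Read numbers are not in the lists, so depth is unknown. The ce10 lists were not used.

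Summits were set against gene starts of Ensembl release 115 (WBcel235), and no peak ran past a chromosome end of the RefSeq genome of that build. Where several summits lay in a window the highest-scoring one was taken. Analysis used Python 3.11.15, pandas 2.3.3, SciPy 1.17.1 and Biopython 1.88, and window assignment was tested on simulated data. Motif intervals are exact (Clopper-Pearson) and cover counting error only. Members and lists were chosen with earlier results of these data known. Genes named are the members, genes sharing their peaks or lying just upstream, the called partner genes with up to 3 highest scores and 2 uncalled ones per group, the called cell cycle genes, and the most alike genes. The genes strm-1, Y39G10AR.11 and cdk-4 were named after their values were seen. Alternatives changed the window, the start used, the assignment, the threshold, the replicates, the motif search and the match distance.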

Additional observations from a re-analysis of the deposited data

How the results depend on the processing

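Of the 9 transcriptional CDK and cyclin genes, 6 to 8 were called under all 9 alternatives, and 7 with the top peaks of either replicate alone. With the nearest start alone ccnk-1 was lost, and with the IDR set limited to its stronger peaks (scores above the median) cit-1.1 was. With the start of the first gene of a run cyh-1 was gained, and cit-1.2 with the wider window and with the pooled list. Partner genes numbered 11 to 20. The share of all genes called was 11.7% with the window of 300 bp upstream to 100 bp downstream, 19.1% with the window of 1000 bp upstream to 500 bp downstream, 16.3% with any annotated transcript start, 18.9% with the start of the first gene of a run, 17.2% with the nearest start within 2000 bp, 10.4% with those stronger peaks and 32.7% with the pooled relaxed list. Each follows from the setting, which counts more or fewer positions or peaks. The share of IDR peaks with the E2F consensus was 12.7% within 50 bp, 19.9% within 150 bp and 20.2% in whole peaks, and the 7 peaks of the list held it in none of them. With the consensus shortened by its leading TT, chosen after seeing the data, 5 of the 7 peaks and 67.2% of all IDR peaks held it. No paired analysis was possible because the series holds 1 group. Depth is unknown, so an absent summit means only that none was listed.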

Other observations

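The shortened consensus words CCCGC or CGCGC or GCCGC or GGCGC, chosen after seeing the data, lay within 100 bp of the summit in 5 of the 7 peaks. Some peaks held several, and only the nearest is given. No distances over all IDR peaks are given, so whether these are short cannot be judged. On cic-1 the nearest began 4 bp after the summit, on cdk-9 3 bp after it, on cit-1.1 at the summit, on cdk-12 23 bp after it and on cdk-7 36 bp after it, whereas the peaks of cdk-8 and ccnk-1 held none. The same letters read backwards occurred in 64.3% of all IDR peaks, next to 67.2% for the words themselves, and the words occurred in 30.5% of stretches of the same length upstream of all gene starts. The word CGCGC is the same read backwards, so peaks holding it counted in both the 64.3% and the 67.2%, which are therefore not independent. No word of the full consensus is the same read backwards. For the full consensus the shares were 17.5% and, read backwards, 10.5%.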
